A study of Mus musculus with 35 samples.

Results

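Amino acids enter cells through carriers of the SLC families, and 10 genes for such carriers, or for the chain that escorts them to the membrane, were followed through the embryo and through cultured pluripotent cells. They were chosen by symbol, as Slc7a1, Slc7a3, Slc7a5, Slc7a6, Slc7a7, Slc3a2, Slc1a4, Slc1a5, Slc38a1 and Slc38a2, out of the 54446 genes of the expression table. Each of the 10 had a level above 2 TPM in every library. TPM is a level corrected for transcript length and scaled to the same total in every library, so that genes can be set side by side.

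Slc7a1 and Slc7a3 encode the cationic carriers CAT1 and CAT3, which take up arginine and lysine. Slc3a2 encodes the heavy chain CD98, which pairs with a light chain. The light chains followed here were Slc7a5 (LAT1), which exchanges leucine and other large neutral amino acids, and Slc7a6 and Slc7a7 (y+LAT2 and y+LAT1), which exchange cationic for neutral amino acids. Slc1a4 and Slc1a5 (ASCT1 and ASCT2) carry alanine, serine, cysteine and, for Slc1a5, glutamine. Slc38a1 and Slc38a2 (SNAT1 and SNAT2) draw small neutral amino acids and glutamine into the cell with sodium. As background, leucine and arginine are sensed by the growth kinase mTORC1, and the transcription factor Atf4 is known to raise transcripts of several of these carriers when amino acids run short.

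The bulk RNA-seq libraries numbered 27, with 3 in each of 9 groups, all labeled wild-type. The 15 in vivo libraries came from untreated CD-1 embryos of mixed sex, as the inner cell mass (ICM) at E3.5 and the epiblast at 4 daily stages from E4.5 to E7.5, with several embryos pooled per library. The ICM was cut out by laser, the E4.5 epiblast was freed by immunosurgery and picked as GFP-negative cells from a Pdgfrα:H2B-GFP line, and the later epiblasts were dissected by hand, so dissection changed with stage. The 12 in vitro libraries were EpiLCs (ESCs kept for 48 h in FGF2 and Activin A, a model of formative pluripotency), 2D EpiSCs (ESCs converted with FGF2 and Activin A), and 3D EpiSCs grown in 3D Matrigel with FGF2, Activin A, XAV and Noggin, from ESCs or from embryos. In the study's methods the 2D EpiSC medium contained MEM non-essential amino acids, whereas the 3D medium was based on N2B27, with Neurobasal A in its base and no such addition listed, so 3D growth and medium cannot be told apart, and the embryo-derived cells also had another origin. The methods name LifeAct-GFP and wild-type CD-1 embryos as sources of embryo-derived EpiSCs, so their genetic background may differ from that of the ESC-based cultures. In vivo libraries were made from total RNA and in vitro libraries from poly-A RNA, so levels in embryo and culture are given side by side without a test.

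Some facts about the libraries touch the results below. In 2D EpiSCs, replicates 1 and 2 were nearly alike (median absolute log2 difference of 0.0647 across genes), and replicate 3 differed from them by 0.136 and 0.131. In ESC-derived 3D EpiSCs, replicates 1 and 2 were nearly alike (0.061), and replicate 3 stood apart from both (0.271 and 0.27), with 9 of the 10 carriers higher than in replicate 1. In embryo-derived 3D EpiSCs, replicates 2 and 3 were nearly alike (0.0568) and replicate 1 stood apart (0.158 from each), with all 10 carriers lower than in replicate 2. Carrier calls that ESC-derived replicate 3 or embryo-derived replicate 1 decides are given with and without it. So are counts over further gene lists that either library moves by more than 1.5 times. Summed primitive and visceral endoderm markers were 693 to 1239 TPM at E5.5 to E7.5, with Afp, Ttr and Apoa1 present, against 155 to 182 TPM at E4.5 and 522 to 534 TPM at E3.5. Summed trophectoderm and extra-embryonic ectoderm markers were 2156 to 2282 TPM at E3.5 and E4.5, against 365 to 614 TPM later. Pou5f1 stood at 251.3 to 721 TPM in the mean of every embryonic stage and at 1389 to 1874 TPM in every culture.

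A gene was called changed at an adjusted p below 0.05 (limma on log2(TPM + 1), Benjamini-Hochberg over all tested genes) together with a fold change above 1 on the log2 scale. "Rose" and "fell" are used below for called genes only. Fold changes on this scale understate the change of genes with low levels. The labels do not say how replicates of a culture were obtained, so p-values measure the spread between these libraries, which may be technical. Libraries of compared groups that do not overlap are common in these data. For all tested genes the share without overlap was 58.6% from E3.5 to E4.5, 64.6% into E5.5, 31.3% into E6.5 and 62.8% into E7.5, and of the 10 carriers it held for 10, 7, 2 and 7. In vitro it was 56.8% and 58.2% for ESC-derived and embryo-derived 3D EpiSCs over 2D EpiSCs (6 and 5 carriers), 50.7% and 64.1% for them over EpiLCs (9 carriers each), 67.8% for 2D EpiSCs over EpiLCs (7 carriers) and 39.2% between the 3D cultures (2 carriers).

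The genes lie at separate places of the genome (mm10), apart from Slc38a2 (chr15:96687392-96699730, minus strand) and Slc38a1 (chr15:96571418-96642913, minus strand), which are neighbors. Slc7a3 lies at chrX:101079210-101086020 and Slc1a4 at chr11:20302180-20332713, both on the minus strand. RefSeq promoter windows (build GRCm38.p6, 250 bases before to 50 bases after a start site) were at hand for 6 of the 10 genes, as 12 windows. Slc7a3, Slc7a5, Slc1a5 and Slc38a1 had no entry. As Atf4 is known to act on several of these genes, the windows were searched on both strands for TGATGNAA, the core to which C/EBP and ATF factors such as Atf4 bind. It was found in 3 of the 12 windows, from 2 of the 6 genes, Slc1a4 and Slc7a7. Over all genes it was in 3.97% of 32851 windows and in 4.51% of the 27025 genes with windows of this length. Slc7a7 had the most windows of the 6 genes, some of them overlapping, so these shares are not fully alike. The E-box CACGTG was in none of the 12 windows and in 7.15% of all windows. A match is a description of the sequence and not a bound site.

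Shown are the window of Slc1a4, the carrier called in the most comparisons, and a window of Slc7a7 with 2 matches. The window of Slc3a2, which holds no match, is also given. Each is given on the strand of its gene with matches in capitals. The Slc1a4 window is chr11:20332664-20332963 (minus strand), and its match starts 4 bases before the start site, as TTGCATCA, the reverse complement of the core. The Slc7a7 window is chr14:54417895-54418194 (minus strand), with matches that start 141 bases and 1 base before its start site. This window lies wholly upstream of the annotated gene (chr14:54369442-54417780). The Slc3a2 window is chr19:8713848-8714147 (minus strand). It lies inside the annotated gene (chr19:8706882-8723369), whose start at the upper end of that span had no window and was not searched.
Slc1a4: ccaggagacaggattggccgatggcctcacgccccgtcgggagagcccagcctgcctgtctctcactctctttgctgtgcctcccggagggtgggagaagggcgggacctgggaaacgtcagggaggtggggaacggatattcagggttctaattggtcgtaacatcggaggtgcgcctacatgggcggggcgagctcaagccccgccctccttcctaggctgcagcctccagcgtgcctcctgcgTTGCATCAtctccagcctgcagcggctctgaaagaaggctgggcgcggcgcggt
Slc7a7: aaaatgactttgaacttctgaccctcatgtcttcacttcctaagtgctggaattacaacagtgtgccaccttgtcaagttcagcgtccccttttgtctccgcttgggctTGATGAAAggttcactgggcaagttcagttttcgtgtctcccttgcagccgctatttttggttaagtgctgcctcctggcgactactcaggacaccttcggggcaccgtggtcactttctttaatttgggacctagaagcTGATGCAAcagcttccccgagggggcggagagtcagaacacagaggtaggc
Slc3a2: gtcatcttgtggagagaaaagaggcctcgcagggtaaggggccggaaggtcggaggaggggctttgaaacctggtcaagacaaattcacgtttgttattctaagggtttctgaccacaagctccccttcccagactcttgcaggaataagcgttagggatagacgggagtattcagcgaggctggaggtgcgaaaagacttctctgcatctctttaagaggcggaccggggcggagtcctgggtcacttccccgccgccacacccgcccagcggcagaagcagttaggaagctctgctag
A further window of Slc7a7 (chr14:54417653-54417952) holds the same TGATGCAA, with the same bases around it, 243 bases before its own start site. The remaining Slc7a7 windows hold no match. Whether matches relate to the levels of these genes was not tested.

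From E3.5 to E4.5, as the ICM gave way to the epiblast, 6 of the 10 carriers were called, more than at any later step. Slc7a3, Slc7a7, Slc38a1 and Slc38a2 rose, and Slc7a6 and Slc1a4 fell. Among all 12332 tested genes 6.2% rose and 11.8% fell. The median log2 change of the 10 carriers was 0.72, and that of all tested genes was -0.09. In bulk samples a lower share of cells with a transcript and less transcript per cell cannot be told apart.

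The cationic carriers changed places. Slc7a3 was at 9.73, 11.5 and 11.6 TPM in the 3 ICM libraries and at 47.4, 51.6 and 47.6 TPM at E4.5, a log2 change of 2.06 ± 0.11 (SE, adjusted p = 3.4e-09 by limma). Slc7a1 was at 39.4, 39.3 and 42.6 TPM in the ICM and at 30.3, 27.8 and 27.3 TPM at E4.5, lower without overlap, but its log2 change of -0.49 stayed under the threshold. At E5.5 Slc7a1 was at 5.01, 6.58 and 5.82 TPM, a fall of 2.12 on the log2 scale from E4.5 (SE 0.11, adjusted p = 1.6e-09), whereas Slc7a3 was at 50.9, 50.3 and 52.4 TPM and overlapped its E4.5 libraries. Slc7a1 thus fell at a later step than the rise of Slc7a3. Expressed as a share within each library, Slc7a3 made up 21.3% ± 1.4 (SD, n = 3) of the summed level of both genes at E3.5, 63.2% ± 2.0 at E4.5 and 89.8% ± 1.3 at E5.5.

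Between E6.5 and E7.5 the pair shifted again. Slc7a3 was at 33.3, 33.5 and 42.7 TPM at E6.5 and at 7.64, 6.64 and 8.42 TPM at E7.5, a fall of 2.13 on the log2 scale (SE 0.11, adjusted p = 4.8e-09). Slc7a1 was at 3.9 to 5.16 TPM at E6.5 and at 3.99 to 4.97 TPM at E7.5, and the groups overlapped. The share of Slc7a3 was 89.0% ± 2.5 at E6.5 and 63.0% ± 5.4 at E7.5. The summed level of the pair was thus lower at E7.5 than at any earlier stage, since neither gene stood above 8.42 TPM in any E7.5 library.

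Among the light chains that pair with Slc3a2, Slc7a6 and Slc7a7 moved in opposite directions. Slc7a6 was at 92.8, 92.9 and 85.4 TPM in the ICM and at 19.0, 19.0 and 23.8 TPM at E4.5, a fall of 2.09 on the log2 scale (SE 0.11, adjusted p = 2.0e-09). Slc7a7, its close relative, was at 21.2, 20.8 and 22.5 TPM in the ICM and at 80.4, 80.6 and 77.4 TPM at E4.5, a rise of 1.84 ± 0.10 (SE, adjusted p = 4.1e-09). Neither pair of groups overlapped, and the y+LAT with the higher level was Slc7a6 in every ICM library and Slc7a7 in every E4.5 library. Of the sum of the 3 light chains followed here, Slc7a6 made up 52.3% ± 1.1 (SD, n = 3) at E3.5 and 10.6% ± 1.5 at E4.5, and Slc7a7 12.5% ± 0.8 and 41.1% ± 0.6. Slc7a8, a further light chain described below, is not in that sum. With it added, Slc7a6 made up 48.6% ± 1.3 and 6.43% ± 1.04, Slc7a7 11.6% ± 0.7 and 24.8% ± 0.2, and Slc7a8 itself 7.22% ± 0.64 and 39.7% ± 1.0.

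At E5.5 and E6.5 Slc7a6 stayed between 21.0 and 27.3 TPM and Slc7a7 between 53.0 and 67.8 TPM, and neither was called at those steps. At E7.5 Slc7a7 was at 24.6, 30.9 and 26.6 TPM, a fall of 1.11 on the log2 scale from E6.5 (SE 0.10, adjusted p = 1.2e-06). Slc7a6 was at 38.4, 41.4 and 38.3 TPM at E7.5, above all 3 E6.5 libraries, with a log2 change of 0.64 ± 0.11 that stayed under the fold threshold. Slc7a6 was thus again the higher of the pair in every E7.5 library. Slc7a7 overlaps Oxa1l on the opposite strand, which was at 30.7 to 55.1 TPM in vivo, and Slc7a6 lies beside Slc7a6os, at 28.3 to 46.8 TPM. The library kits mark strand, but no strand option is among the quantification parameters that the methods list, and how reads from overlapping ends were divided was not tested.

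**Figure D1:**
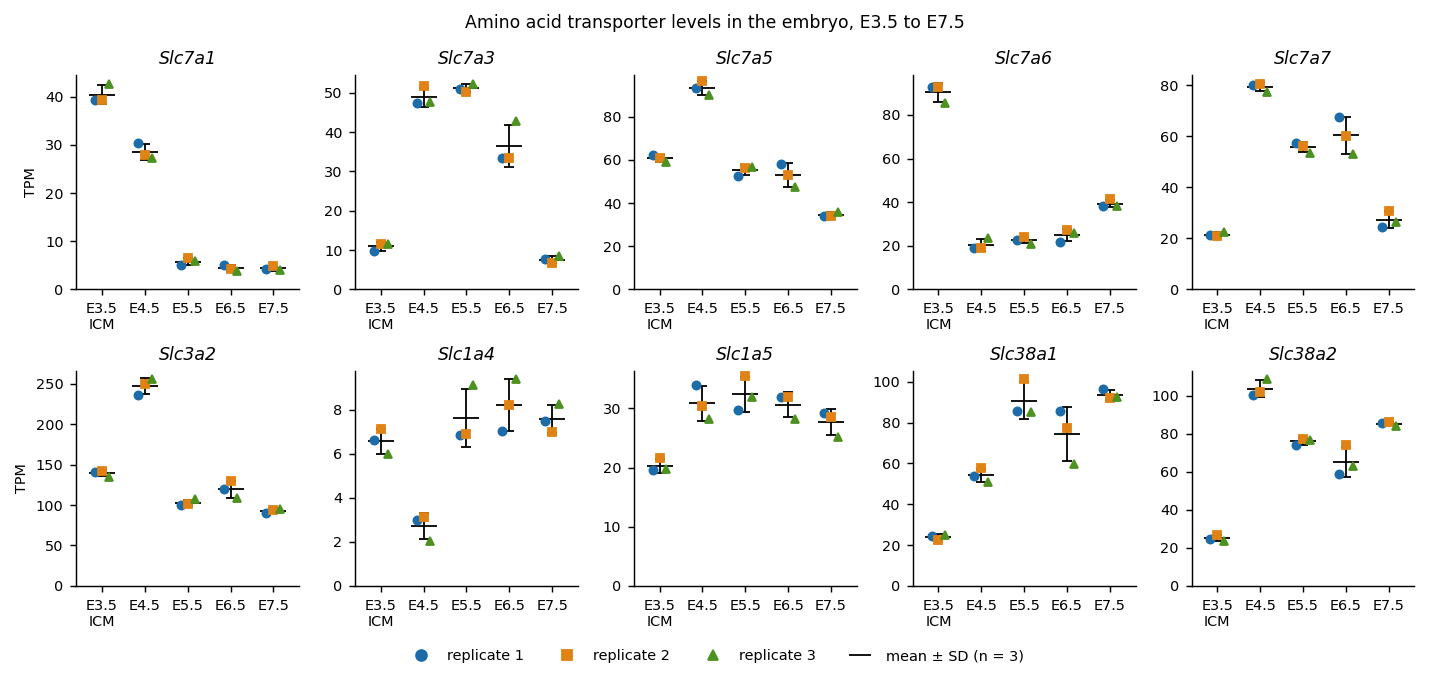
Levels of the 10 carriers (TPM, each panel with its own axis from 0) in the 15 in vivo libraries by stage. Symbols are single libraries, and black bars are the mean and SD of 3. Slc7a1 and Slc7a3 cross between E3.5 and E4.5, Slc7a6 and Slc7a7 do so in opposite directions, and Slc3a2 and Slc7a5 peak at E4.5.

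The heavy chain Slc3a2 and the leucine carrier Slc7a5 followed a common course with a peak at E4.5. Slc3a2 was at 141, 142 and 135 TPM in the ICM, at 236, 250 and 256 TPM at E4.5, and at 99.6, 101 and 107 TPM at E5.5. It had the highest level of the 10 in every in vivo library except 1 at E5.5 and 1 at E7.5, where Slc38a1 was higher. Its log2 change of 0.82 ± 0.08 into E4.5 was under the fold threshold, and it then fell by 1.26 on the log2 scale (SE 0.08, adjusted p = 1.1e-08). Slc7a5 was at 59.1 to 62.1 TPM in the ICM, 90.2 to 96.4 TPM at E4.5, 52.6 to 56.6 TPM at E5.5, 47.5 to 58.2 TPM at E6.5 and 34.0 to 35.9 TPM at E7.5. None of its steps was called, with log2 changes of 0.61, -0.75, -0.06 and -0.59, although only E5.5 and E6.5 overlapped among neighboring stages. Over the 15 in vivo libraries, which share stage, dissection and kit, Pearson's r between Slc7a5 and Slc3a2 was 0.92.

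Slc38a1 and Slc38a2, the sodium-coupled carriers, rose together into E4.5 and then parted. Slc38a2 was at 24.7, 26.7 and 23.7 TPM in the ICM and at 100.6, 102 and 108.8 TPM at E4.5, a log2 change of 2.01 ± 0.09 (SE, adjusted p = 4.6e-10). Slc38a1 was at 24.4, 22.3 and 25.0 TPM in the ICM and at 53.8, 57.6 and 50.9 TPM at E4.5, a log2 change of 1.15 ± 0.12 (SE, adjusted p = 2.7e-06). In the ICM both were at the same level, with a ratio of Slc38a2 to Slc38a1 of 1.05 ± 0.13 (SD, n = 3), and at E4.5 the ratio was 1.93 ± 0.19. At E5.5 Slc38a1 was at 85.2 to 101 TPM, above every E4.5 library (log2 change 0.73), and Slc38a2 at 74.0 to 77.2 TPM, below every E4.5 library (log2 change -0.44), neither past the fold threshold, and the ratio was 0.84 ± 0.07. It stayed at 0.9 ± 0.19 and 0.91 ± 0.02 at E6.5 and E7.5.

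The 2 neutral carriers of the Slc1 family differed in course. Slc1a4 had the lowest level of the 10 in the ICM and at E4.5. It was at 6.64, 7.11 and 5.99 TPM in the ICM, at 3.0, 3.13 and 2.03 TPM at E4.5, and at 6.85, 6.90 and 9.13 TPM at E5.5. It fell by 1.04 on the log2 scale into E4.5 (SE 0.14, adjusted p = 3.5e-05) and rose by 1.22 ± 0.14 into E5.5 (SE, adjusted p = 5.2e-06), so that E4.5 was a trough between stages of like level. The fall is close to the threshold and was -0.9 without E4.5 replicate 3, -0.99 without E3.5 replicate 2 and -0.96 with median-of-ratios scaling. Slc1a5 ranged only from 19.5 to 35.5 TPM over all 15 libraries, was lowest in the ICM, and had no called step.

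At the step into E5.5, which in the embryo follows implantation, 3 of the 10 carriers were called. Slc1a4 rose, and Slc7a1 and Slc3a2 fell, against 15.2% of all tested genes higher and 9.71% lower. The median log2 change was -0.19 for the carriers and 0.16 for all genes. RNA fragmentation in library preparation also changed between E4.5 and E5.5, as did the trophectoderm and endoderm marker sums given above, and the part of these in the step was not tested. From E5.5 to E6.5 none of the 10 was called by limma, where 0.738% of all genes rose and 0.462% fell. At an unadjusted p below 0.05 there were 5 carriers, and the share of all genes at that p was not counted. Only Slc7a3 had an adjusted p below 0.05 by limma (0.015), with a log2 change of -0.49. The median log2 change was -0.07 for the carriers and -0.06 for all genes. From E6.5 to E7.5 Slc7a3 and Slc7a7 fell and none rose, against 1.95% of all genes lower and 10.7% higher. Summed pluripotency markers were 1016 to 1045 TPM at E6.5 and 385 to 404 TPM at E7.5, and the part of this shift in the step was not tested.

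The last step moved the whole distribution. The median log2 change of all tested genes from E6.5 to E7.5 was 0.32, and that of the carriers was -0.12. With median-of-ratios scaling the 2 medians were -0.03 and -0.48, and 62% of all called genes were higher, against 84.7% before rescaling. Slc7a3 and Slc7a7 were called lower under both scalings. The log2 change of Slc38a1, 0.35 before rescaling, was -0.04 after it, so its direction at this step depends on the scaling.

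**Figure D2:**
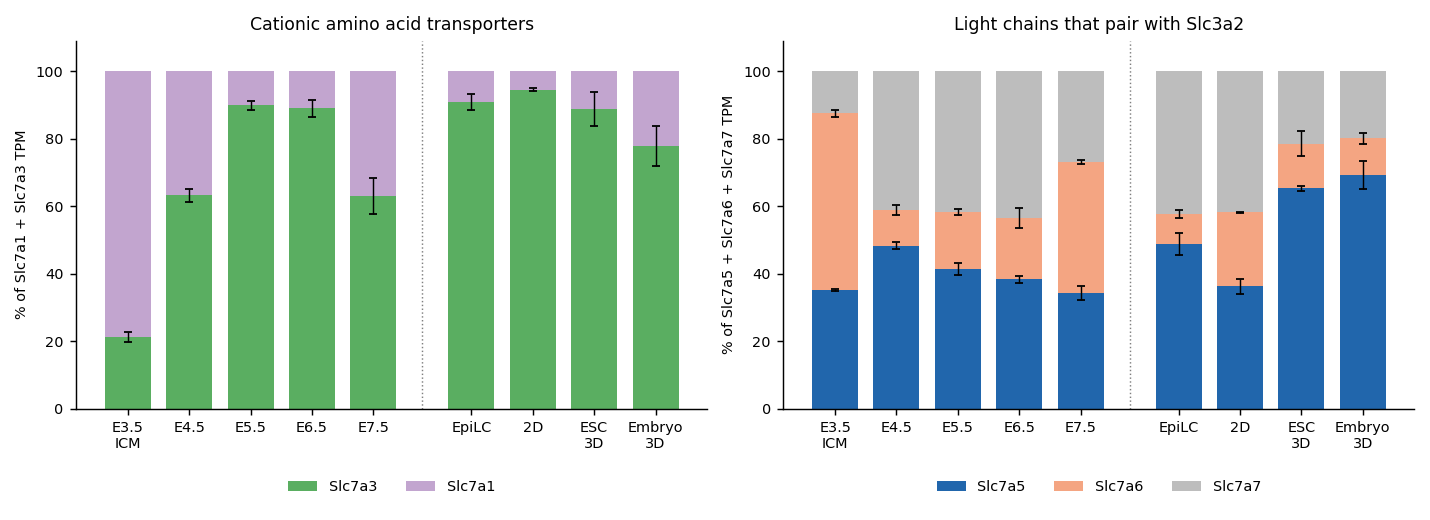
Shares of summed TPM (%) within each library, as means of 3 libraries, for Slc7a3 and Slc7a1 (left) and for the 3 light chains Slc7a5, Slc7a6 and Slc7a7, without Slc7a8 (right). Error bars are the SD of the segment that ends there, and the dotted line parts the in vivo from the in vitro groups, which were made with different kits. Slc7a3 holds 21.3% of its pair at E3.5 and 89.8% at E5.5, and Slc7a5 holds 65.2% and 69.1% of the 3 light chains in the 3D cultures.

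In EpiLCs Slc38a2 was the highest of the 10 (349, 290 and 442 TPM), followed by Slc3a2 (219, 262 and 156 TPM) and Slc7a3 (201, 163 and 185 TPM). In 2D EpiSCs Slc7a3 was the highest (300.4, 317 and 345 TPM). In ESC-derived 3D EpiSCs the highest mean was that of Slc3a2, at 361 TPM, beside 324 TPM for Slc7a5 and 313 TPM for Slc7a3. In embryo-derived 3D EpiSCs the highest was Slc7a5, with a mean of 435 TPM. Slc7a1 or Slc1a4 had the lowest level in every EpiLC and 2D EpiSC library. Slc7a3 made up 90.9% ± 2.3 (SD, n = 3) of the cationic pair in EpiLCs, 94.5% ± 0.4 in 2D EpiSCs, 88.8% ± 4.9 in ESC-derived and 77.8% ± 6.0 in embryo-derived 3D EpiSCs, beside 89.8% and 89.0% in the E5.5 and E6.5 epiblast. Slc7a3 is X-linked, and Xist was under 0.05 TPM in every 2D EpiSC and ESC-derived 3D EpiSC library, at 1.67 to 5.97 TPM in EpiLCs and at 1.72 to 4.1 TPM in embryo-derived 3D EpiSCs. Summed with the Y-linked Ddx3y, Kdm5d, Uty and Eif2s3y, Xist came to 131 to 142 TPM in EpiLCs and 96.9 to 108 TPM in 2D EpiSCs. In ESC-derived and embryo-derived 3D EpiSCs the sum was 78.9 to 94.4 and 168 to 174 TPM. Most of each sum was thus Y-linked in every culture, and the number of X chromosomes was not tested.

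The comparison of 3D with 2D EpiSCs asks how the 3D culture differs from the conventional one. In both 3D cultures the leucine exchanger rose with its heavy chain. Slc7a5 was at 100.4, 96.9 and 128 TPM in 2D EpiSCs, at 263, 258 and 453 TPM in ESC-derived 3D EpiSCs, and at 303, 504 and 498 TPM in embryo-derived 3D EpiSCs. Slc3a2 was at 147, 152 and 174 TPM in 2D EpiSCs, at 312, 310 and 462 TPM in ESC-derived and at 298, 451 and 441 TPM in embryo-derived 3D EpiSCs. For both genes every 3D library stood above every 2D library. The log2 change of Slc7a5 was 1.53 ± 0.27 (SE, adjusted p = 0.0011) and 1.97 ± 0.27 (adjusted p = 0.00023), and that of Slc3a2 was 1.17 ± 0.22 (adjusted p = 0.0018) and 1.30 ± 0.22 (adjusted p = 0.0010), in ESC-derived and embryo-derived cells respectively and all by limma. Without ESC-derived replicate 3 the change of Slc7a5 was 1.27, still called, and that of Slc3a2 was 0.98, just under the threshold. Both comparisons share the 2D EpiSC libraries. Markers of other cells also differed between these cultures. Summed endoderm markers were 47.4 to 64.2 TPM in 2D EpiSCs, 0.825 to 14.01 TPM in ESC-derived and 12.8 to 26.2 TPM in embryo-derived 3D EpiSCs, and summed trophectoderm and extra-embryonic ectoderm markers were 286 to 391, 149 to 239 and 122.9 to 135 TPM. Their part in the changes of the carriers was not tested.

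In ESC-derived 3D EpiSCs these 2 were the only carriers of the 10 called higher than in 2D EpiSCs, and none was lower, against 0.651% of all 11984 tested genes higher and 9.34% lower. In those derived from embryos, 5 of the 10 rose and none fell, against 1.04% and 7.74% of all genes. The median log2 change of the carriers was 0.36 and 0.77 in the respective cultures, and that of all genes -0.21 and -0.08. With median-of-ratios scaling the carriers' medians were 0.58 and 0.85, and those of all genes -0.01 and 0.

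The 3 further genes that rose in embryo-derived 3D EpiSCs were Slc7a1, Slc1a4 and Slc1a5. Slc7a1 was at 18.9, 17.0 and 20.0 TPM in 2D EpiSCs and at 35.1, 120 and 124 TPM in embryo-derived 3D EpiSCs, a log2 change of 2.06 ± 0.43 (SE, adjusted p = 0.0035 by limma). Slc1a4 was at 30.3, 29.8 and 40.8 TPM in 2D EpiSCs and at 84.7, 120 and 121 TPM in embryo-derived cells, a log2 change of 1.66 ± 0.21 (SE, adjusted p = 0.00015). Slc1a5 was at 34.4, 35.2 and 33.7 TPM in 2D EpiSCs and at 51.3, 91.9 and 83.7 TPM in embryo-derived cells, a log2 change of 1.07 ± 0.20 (SE, adjusted p = 0.0020). No library of these groups overlapped for any of the 3 genes, but replicate 1 was the lowest embryo-derived library for each. Without it the log2 changes were 2.65, 1.83 and 1.32 for Slc7a1, Slc1a4 and Slc1a5. Averaging near-identical replicates before the fit left 2 libraries each in 2D EpiSCs and in both 3D cultures. Slc7a1 (1.74) and Slc1a5 (0.95) were then no longer called. Slc1a5 was also not called without embryo-derived replicate 2 (0.91) or replicate 3 (0.98).

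The same 3 genes were uncalled in ESC-derived 3D EpiSCs. Slc7a1 was at 28.6, 29.6 and 62.3 TPM there, Slc1a4 at 46.3, 45.6 and 78.1 TPM, and Slc1a5 at 44.9, 46.1 and 65.9 TPM, with every library above every 2D EpiSC library. Their log2 changes were 0.98 ± 0.43, 0.71 ± 0.21 and 0.57 ± 0.20 (SE), and the adjusted p was 0.080, 0.020 and 0.039 by limma. Replicate 3 was the highest in each case, and without it the changes were 0.62, 0.45 and 0.39. With median-of-ratios scaling, Slc7a1 was called (1.19). In the direct comparison of ESC-derived with embryo-derived 3D EpiSCs none of the 10 was called by limma, against 1.99% of all genes called in each direction. At an unadjusted p below 0.05 there were 4 carriers, and the share of all genes at that p was not counted. The median log2 difference was -0.37 for the carriers and -0.12 for all genes. Of the calls over all genes 50.1% were higher in ESC-derived cells, and 65.2% with median-of-ratios scaling. Slc1a4 came closest, with a log2 difference of -0.95 ± 0.21 (SE, adjusted p = 0.011), followed by Slc38a2 (-0.59, adjusted p = 0.013). Slc1a4 and Slc7a1 passed both thresholds once ESC-derived replicate 3 or embryo-derived replicate 1 was left out. Their log2 differences were -1.21 and -1.44 in the first case and -1.12 and -1.67 in the second. Over all genes 442 of 11946 were called lower in the first case and 268 of 11954 in the second, against 238 of 11984 with every library.

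None of the other carriers was called against 2D EpiSCs. Slc7a6 was at 61.3 to 72.0 TPM in 2D EpiSCs, 60.1 to 63.9 TPM in ESC-derived and 60.2 to 70.9 TPM in embryo-derived 3D EpiSCs, and all groups overlapped. Slc7a7 was at 74.2, 76.2 and 186 TPM in ESC-derived 3D EpiSCs, so that replicate 3 alone stood above the 122 to 130 TPM of 2D EpiSCs and the other 2 below, and its log2 change was -0.29 with replicate 3 and -0.72 without it. Slc7a3 was at 306 to 320 TPM in ESC-derived cells and at 194, 357 and 351 TPM in embryo-derived cells, which overlapped 2D EpiSCs in both cases. Slc38a2 was lower in each ESC-derived library (176, 175 and 200.4 TPM) than in any 2D EpiSC library (254 to 276 TPM), but its log2 change of -0.53 ± 0.14 was under the fold threshold. Through these unequal changes Slc7a5 made up 36.3% ± 2.2 (SD, n = 3) of the 3 light chains in 2D EpiSCs, 65.2% ± 0.9 in ESC-derived and 69.1% ± 4.2 in embryo-derived 3D EpiSCs, with 48.8% ± 3.3 in EpiLCs.

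**Figure D3:**
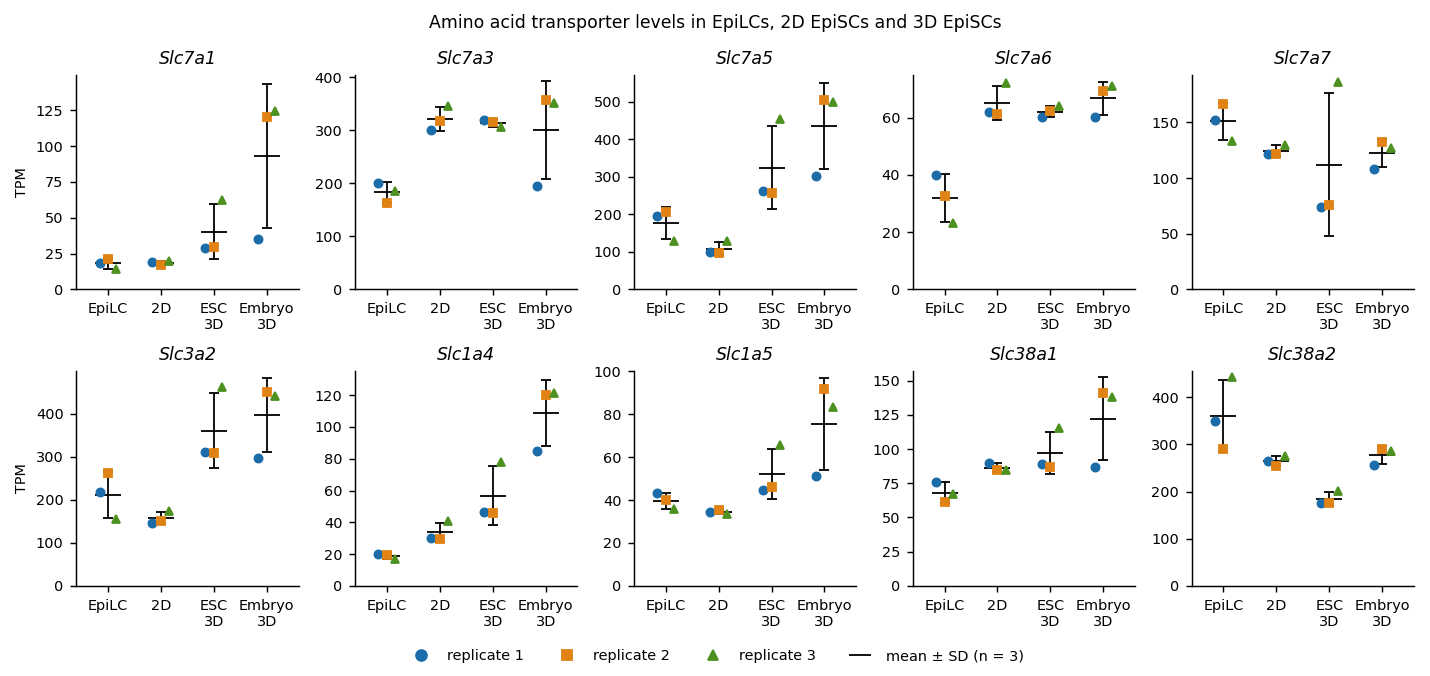
Levels of the 10 carriers (TPM, each panel with its own axis from 0) in the 12 in vitro libraries by group. Symbols are single libraries, and black bars are the mean and SD of 3. Slc7a5 and Slc3a2 are above the 2D EpiSCs in all 6 libraries of 3D EpiSCs, and replicate 3 of the ESC-derived cells and replicate 1 of the embryo-derived cells stand apart for most genes.

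**Figure D4:**
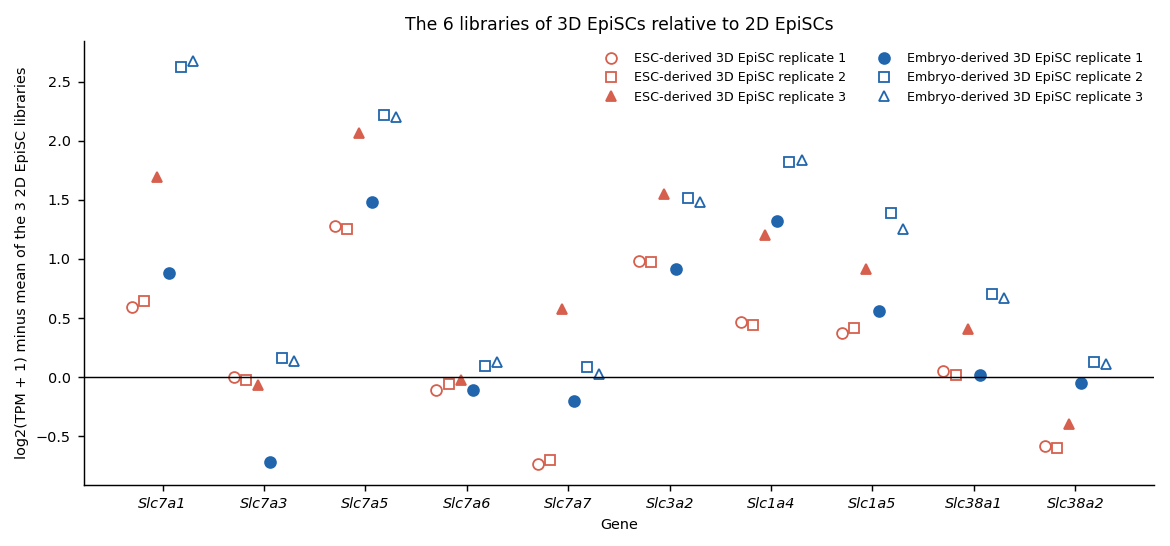
Level of each carrier in the 6 libraries of 3D EpiSCs as log2(TPM + 1) minus the mean of the 3 2D EpiSC libraries, which is the line at 0. Filled symbols mark ESC-derived replicate 3 and embryo-derived replicate 1, the libraries that stood apart. Slc7a1, Slc7a5, Slc3a2, Slc1a4 and Slc1a5 are above 0 in all 6 libraries, and Slc7a6 stays close to 0.

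Against EpiLCs, Slc1a4 rose in both 3D cultures. It was at 20.2, 19.2 and 17.0 TPM in EpiLCs, and its log2 change was 1.5 ± 0.21 (SE, adjusted p = 0.00017 by limma) in ESC-derived and 2.46 ± 0.21 (adjusted p = 2.1e-06) in embryo-derived 3D EpiSCs. In 2D EpiSCs it was 0.80 ± 0.21 above EpiLCs, under the fold threshold, and the libraries of all 4 culture groups were apart from their neighbors in the order EpiLC, 2D EpiSC, ESC-derived and embryo-derived 3D EpiSC. Slc1a4 was the only carrier called in ESC-derived 3D EpiSCs over EpiLCs, where 5.47% of all genes were called higher and 7.28% lower. When embryo-derived cells were set against EpiLCs, Slc7a1 (log2 change 2.11), Slc7a5 (1.29) and Slc7a6 (1.07) rose as well (2.7 for Slc7a1 without embryo-derived replicate 1), and none of the 10 fell, against 10.7% of all genes higher and 8.39% lower. The carriers had a median log2 change of 0.89, and all genes of 0.11. Slc7a6 was not called without EpiLC replicate 3 (0.87) or with median-of-ratios scaling (0.96). Without embryo-derived replicate 1 the count was 7, with Slc3a2 (1.10), Slc1a5 (1.13) and Slc38a1 (1.03) added. Over all genes 1362 of 11954 were then higher, against 1280 of 11984 with every library.

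Slc7a6 was the only carrier called in 2D EpiSCs over EpiLCs, where 15.5% of all genes were higher and 5.29% lower. It was at 40.0, 32.5 and 23.3 TPM in EpiLCs and at 62.0, 61.3 and 72.0 TPM in 2D EpiSCs, a log2 change of 1.03 ± 0.16 (SE, adjusted p = 0.00019 by limma), without overlap. The call did not hold without EpiLC replicate 3 (0.83), without 2D EpiSC replicate 3 (0.96) or with median-of-ratios scaling (0.83), which also moved the share of higher calls over all genes from 74.6% to 63.9%. Slc38a2 had the opposite order. At 290 to 442 TPM in EpiLCs it was above the 2D EpiSC libraries (log2 change of 2D EpiSCs -0.42) and above ESC-derived 3D EpiSCs (-0.95 ± 0.14), both under the fold threshold. Without ESC-derived replicate 3 it was called lower there, at -1.01, and without EpiLC replicate 2 at -1.09.

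**Figure D5:**
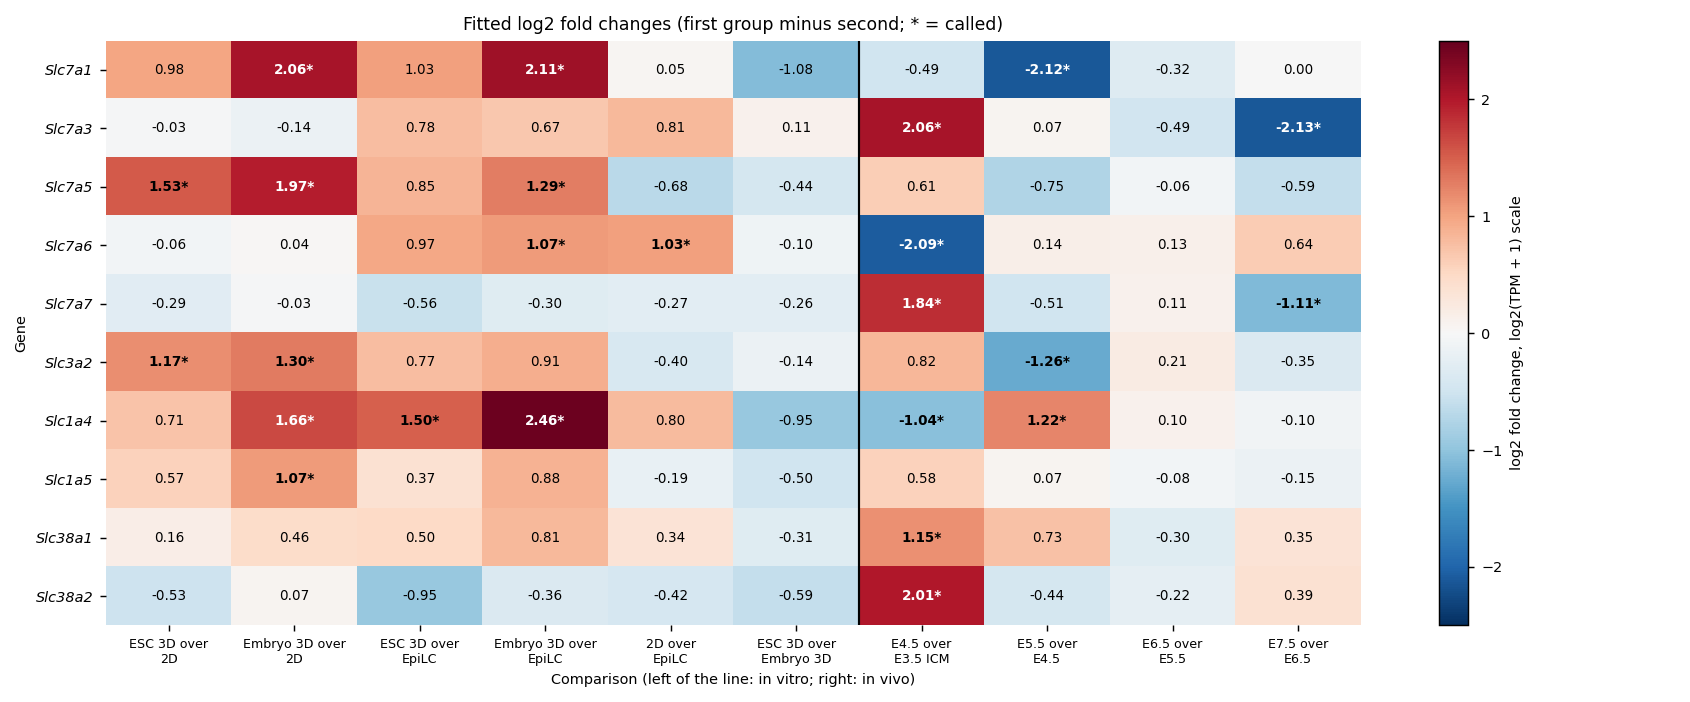
Fitted log2 fold changes on the log2(TPM + 1) scale for the 10 carriers (rows) in the 10 comparisons (columns, first group over second), with in vitro comparisons left and in vivo comparisons right of the line. Red is higher and blue is lower in the first group, and bold numbers with an asterisk passed both thresholds. Among the 6 in vitro comparisons every called value is positive, and the E4.5 column has 6 called values.

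Across the 12 in vitro libraries, which share groups, kit and the libraries that stood apart, the carriers fell into unlike patterns. Pearson's r of log2(TPM + 1) was 0.99 between Slc7a5 and Slc3a2, 0.98 between Slc7a1 and Slc1a5, and 0.91 between Slc7a1 and Slc1a4. Slc7a7 and Slc38a2 did not follow these genes, with r of 0.04 and -0.29 to Slc7a5. Among the tested genes outside the 10 carriers, the nearest to Slc7a5 were Aars (r = 0.99), the alanyl-tRNA synthetase, and Shmt2 (0.99), the mitochondrial serine hydroxymethyltransferase, and those nearest to Slc3a2 were Fgf21 (0.99), a secreted factor of the FGF family, and Shmt2 (0.98). The nearest to Slc7a1 were Iah1 (0.99) and Bcat1 (0.98), the cytosolic branched-chain aminotransferase, and to Slc1a5 Bcat1 (0.99) and Nars (0.97), the asparaginyl-tRNA synthetase. The nearest to Slc1a4 were Mia2 and Rnaset2a, to Slc7a3 Ctnnd2 and Lmo4, to Slc7a6 Itfg1 and Vps4a, to Slc7a7 Ccdc30 and Hectd3, to Slc38a1 Mknk1 and Taf15, and to Slc38a2 Phf20 and Med14, with r from 0.91 to 0.98.

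Over the 15 in vivo libraries, other pairs stood out. Slc7a6 ran opposite to Slc7a7 (r = -0.91) and to Slc1a5 (-0.92), and Slc7a3 ran with Slc7a7 (0.90). By ranks (Spearman's rho) the values for these pairs were -0.89, -0.77 and 0.66. Outside the 10 carriers, the genes nearest to Slc7a1 were Arl14epl and Mybl2, to Slc7a3 the heat shock genes Hspa1b and Hspa1a, to Slc7a5 Eif4ebp1, an inhibitor of translation that mTORC1 phosphorylates, and Tex19.1, and to Slc7a6 Tie1 and Serinc3. Those nearest to Slc7a7 were Srm and Ucp2, to Slc3a2 Apobr and Hspb8, to Slc1a4 Mettl7a1 and Klc4, to Slc1a5 Pla2g12a and Igsf8, to Slc38a1 Supt16 and Arhgef2, and to Slc38a2 Scd2 and Tpm2, with r from 0.94 to 0.99. These values describe likeness over stages that differ in much else.

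Genes that supply or use amino acids were counted in the same fits. Of 21 tested enzymes of amino acid synthesis, 5 rose in ESC-derived and 8 in embryo-derived cells of the 3D culture over 2D EpiSCs, and none fell. Of all tested genes 0.651% rose and 9.34% fell in the first comparison, and 1.04% and 7.74% in the second. Their median log2 changes were 0.36 and 0.47. The largest in ESC-derived cells were Psph (1.52 ± 0.44, SE), Psat1 (1.34 ± 0.30) and Shmt2 (1.33 ± 0.27), which act in serine synthesis and its use, and in embryo-derived cells Psph (2.30 ± 0.44), Gpt2 (1.93 ± 0.27), the mitochondrial alanine aminotransferase, and Shmt2 (1.80 ± 0.27). Against EpiLCs 6 and 10 of the 21 were higher and 1 lower in each (all genes 5.47% and 10.7% higher, 7.28% and 8.39% lower), led by Ass1 (-1.53), Cth (1.33) and Psat1 (1.31) in ESC-derived and by Psph (1.82), Aldh18a1 (1.71) and Asns (1.63) in embryo-derived cells. The lower gene was Ass1, the argininosuccinate synthase, in ESC-derived cells. Without ESC-derived replicate 3 the 6 became 3, where 549 of 11946 genes were higher, against 655 of 11984 with every library. In 2D EpiSCs over EpiLCs 3 were higher and 1 lower (15.5% and 5.29% of all genes), with Cth (1.43), Ass1 (-1.30) and Cbs (1.21) first. In ESC-derived over embryo-derived cells Ass1 alone was called, and was lower (1.99% of all genes lower). There 2 were called lower once ESC-derived replicate 3 or embryo-derived replicate 1 was left out (442 of 11946 and 268 of 11954 genes).

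Of the 20 cytosolic aminoacyl-tRNA synthetases none was called in ESC-derived over 2D EpiSCs, and 5 were higher in embryo-derived over 2D EpiSCs (1.04% of all genes), led by Nars (1.27 ± 0.27), Cars (1.26 ± 0.19) and Gars (1.22 ± 0.26). Against EpiLCs Sars was higher in ESC-derived cells (1.17), and Sars (1.52), Nars (1.2) and Cars (1.2) in embryo-derived cells (5.47% and 10.7% of all genes). Without embryo-derived replicate 1, 8 were higher over 2D EpiSCs and 6 over EpiLCs (155 and 1362 of 11954 genes). Without ESC-derived replicate 3 none was called over EpiLCs, where 549 of 11946 genes were higher. None of the 20 was called in any in vivo step.

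The list of signaling genes around Atf4 and mTORC1 moved unevenly. Of 21 tested, 3 rose and 3 fell from 2D to ESC-derived 3D EpiSCs, and 5 rose and 1 fell from 2D to embryo-derived 3D EpiSCs, beside the same shares of all genes as above (0.651% and 9.34%, and 1.04% and 7.74%). Atf4 itself was higher in both, at a mean of 543 and 576 TPM against 266 TPM in 2D EpiSCs (log2 changes 1.03 ± 0.16 and 1.11 ± 0.16, SE). Chac1, an enzyme that degrades glutathione, was at 3.92 TPM in the mean of 2D EpiSCs and at 78.3 and 111 TPM in ESC-derived and embryo-derived 3D EpiSCs (log2 changes 4.03 ± 0.50 and 4.53 ± 0.50, SE). Trib3, a pseudokinase known as a target of Atf4, rose by 2.51 ± 0.45 and 3.59 ± 0.45. Sesn3 was lower in both (-1.46 and -1.37). Atf5 rose in embryo-derived cells (2.59), where replicate 1 was at 36.5 TPM and the others at 373 and 375 TPM. Against EpiLCs 4 and 7 of the 21 were higher and none lower (5.47% and 10.7% of all genes higher), led by Chac1 (3.18), Vldlr (2.41) and Trib3 (2.04) in ESC-derived and by Chac1 (3.68), Atf5 (3.40) and Vldlr (3.31) in embryo-derived cells. In 2D EpiSCs over EpiLCs 3 of the 21 were higher and none lower, beside 15.5% and 5.29% of all genes. These 3 were Vldlr (2.36), Ddit4 (2.07) and Castor2 (1.52). Between the 3D cultures none of the 21 was called, but 1 was lower in ESC-derived cells without ESC-derived replicate 3 and 4 without embryo-derived replicate 1. Over all genes 442 of 11946 and 268 of 11954 were lower in these settings, against 238 of 11984 with every library.

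Some of these genes moved with the libraries that stood apart, while others varied less within 1 of the 2 cultures. Atf4 was at 530, 532 and 567 TPM in the ESC-derived libraries, and Chac1 at 97.3, 121 and 114 TPM in the embryo-derived ones. The libraries of the other 3D culture are not listed for either gene. For Chac1 the fitted SE given above, over all in vitro libraries, was larger than that of Trib3. Asns, the asparagine synthetase, was at 250 and 246 TPM in ESC-derived replicates 1 and 2 and at 569 TPM in replicate 3, and at 241 TPM in embryo-derived replicate 1 and 634 and 625 TPM in replicates 2 and 3. Trib3 was at 66.7 TPM in embryo-derived replicate 1 and at 180 TPM in both others. The summed enzymes of amino acid synthesis were at 2970 and 2980 TPM in ESC-derived replicates 1 and 2 and at 4303 TPM in replicate 3, and at 2803 TPM in embryo-derived replicate 1 and 4739 and 4729 TPM in the other 2, beside 1985 to 2248 TPM in 2D EpiSCs. The library with the most Slc7a1, Slc7a5, Slc3a2, Slc1a4 and Slc1a5 within its ESC-derived group, replicate 3, was thus also the highest of that group in these enzymes. Summed endoderm markers were 14.01 TPM in ESC-derived replicate 3 and under 1 TPM in the other 2, and summed primitive streak markers were 195 TPM in embryo-derived replicate 1 and 97.1 and 97.6 TPM in the others. The part of either in the carriers' levels was not tested.

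In the embryo the summed synthesis enzymes were 1556 to 1579 TPM at E3.5, 1760 to 1828 TPM at E4.5, 1027 to 1112 TPM at E5.5, 1132 to 1209 TPM at E6.5 and 1096 to 1123 TPM at E7.5, so that, as for Slc3a2, the highest sums were at E4.5. Of all tested genes, 6.2% rose and 11.8% fell into E4.5, 15.2% and 9.71% into E5.5, 0.738% and 0.462% into E6.5, and 10.7% and 1.95% into E7.5. From E3.5 to E4.5, 1 of the 21 synthesis enzymes rose, Psat1 (1.64), and 2 fell, Cbs (-2.37) and Asns (-1.08). From E4.5 to E5.5, 5 fell and none rose, led by Ass1 (-3.44), Psat1 (-2.25) and Bcat1 (-1.31). Of the signaling genes, Rragb (2.37) and Chac1 (1.30) rose and Rragd (-2.33) and Atf5 (-1.45) fell into E4.5, and 5 rose and 3 fell into E5.5, led by Rragd (3.38), a Rag GTPase that recruits mTORC1 to the lysosome, Castor2 (2.43) and Ddit3 (-2.42). At the last step 3 rose and 1 fell, with Ddit4 (2.22), Vldlr (1.34) and Ddit3 (1.13) the largest. None of the lists had a called gene from E5.5 to E6.5.

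Of 47 other genes for amino acid and related carriers, 23 passed the filter on low values in each of the fits, in vitro and in vivo. In ESC-derived over 2D EpiSCs 1 was higher and 5 lower, and in embryo-derived over 2D EpiSCs 2 were higher and 4 lower, with median log2 changes of -0.33 and -0.10, where 0.651% and 1.04% of all genes were higher and 9.34% and 7.74% lower. Slc7a11, the light chain of the cystine-glutamate exchanger, which also pairs with Slc3a2, was at 0.0869 to 0.2 TPM in 2D EpiSCs and at 3.10 to 4.36 and 2.69 to 9.12 TPM in ESC-derived and embryo-derived 3D EpiSCs (log2 changes 2.01 ± 0.30 and 2.62 ± 0.30, SE). Slc6a9, the glycine carrier GlyT1, rose in embryo-derived cells (1.80 ± 0.28). Slc38a4, a relative of Slc38a1 and Slc38a2, was at a mean of 211 TPM in 2D EpiSCs, 73.5 TPM in ESC-derived and 30.4 TPM in embryo-derived 3D EpiSCs, and fell in both (-1.52 ± 0.15 and -2.76 ± 0.15). Slc38a3 (-1.68) and Slc38a5 (-1.58) fell in ESC-derived cells.

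Against EpiLCs 4 of the 23 were higher in each 3D culture, and 1 lower in embryo-derived cells (all genes 5.47% and 10.7% higher, 8.39% lower in the latter). Without ESC-derived replicate 3 the count of higher genes in ESC-derived cells was 2 (549 of 11946 genes). Slc7a11 (1.63), Slc7a8 (1.48) and Slc38a5 (1.13) led in ESC-derived and Slc7a11 (2.24), Slc6a9 (2.15) and Slc38a5 (2.12) in embryo-derived cells. In 2D EpiSCs over EpiLCs Slc38a5 (2.71), Slc38a3 (2.36) and Slc7a8 (2.18) were higher (15.5% of all genes). Between the 3D cultures 2 of the 23 were higher and 2 lower in ESC-derived cells (1.99% of all genes in each direction). The largest changes were those of Slc38a3 (-1.38), Slc38a4 (1.24) and Slc6a9 (-1.12). Without ESC-derived replicate 3 the counts were 1 higher and 3 lower (246 and 442 of 11946 genes). Without embryo-derived replicate 1 they were 2 and 3 (252 and 268 of 11954 genes).

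In vivo these other carriers changed most into E5.5, with 6 of 23 higher and 6 lower (15.2% and 9.71% of all genes). Slc7a8 (LAT2), a further light chain of Slc3a2, was at a mean of 13.4 TPM in the ICM, 127 TPM at E4.5 and 17.4 TPM at E5.5 (log2 changes 3.16 ± 0.08 and -2.80 ± 0.08, SE), so that its peak fell on the stage at which Slc3a2 peaked. Slc1a1, a glutamate carrier, was at a mean of 66.8 TPM at E4.5 and 0.0647 TPM at E5.5, and Slc6a14, a broad carrier of neutral and cationic amino acids, at 52.1 and 0.0411 TPM. Into E4.5, Slc6a8, the creatine carrier, fell from 339 to 44.4 TPM (-2.90 ± 0.11), and Slc7a2, the cationic carrier CAT2, fell by 2.03 on the log2 scale from a mean of 4.34 TPM. Of the 23, 1 was higher and 4 lower at that step (6.2% and 11.8%). Into E7.5, 4 were higher and 1 lower (10.7% and 1.95%), led by Slc38a8 (2.34), Slc38a4 (1.73) and Slc6a15 (-1.48).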

How the data were processed

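Gene levels were measured by bulk RNA-seq in 27 libraries of a series of 35 samples, and its other samples were not analysed here. The deposited TPM values were made by the authors with StringTie and GENCODE annotation, after trimming by cutadapt 2.4 and alignment to mm10 by STAR. The kits mark strand, and no strand option is among the StringTie parameters listed. TPM keeps no depth, which is therefore unknown, and 20324 to 26751 genes were above 0 per library. Of the 54490 lines of the table, those of 12 identifiers on several lines were summed, and 56 lines had empty cells, counted as 0.

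Protein-coding genes on autosomes or X (the study used autosomes) above 2 TPM in at least 3 libraries of a fit were tested on log2(TPM + 1) with limma 3.58.1 in R 4.3.3, without an intensity trend. The 12 in vitro libraries (11984 genes, 6 comparisons) and the 15 in vivo libraries (12332 genes, 4 comparisons of successive stages) were fitted separately. The authors' count test could not be run on TPM. A call needed a Benjamini-Hochberg adjusted p below 0.05 and a log2 change beyond 1 in size. The scripts were tested on simulated data. All 10 carriers are named, with the 2 most alike genes outside the 10 by Pearson's r and the 3 largest called changes of each further list per comparison; other named genes of these lists were chosen after their values were seen. The members and lists were chosen with earlier results of these data known. Promoter windows came from RefSeq (GRCm38.p6), and figures were drawn with matplotlib 3.10.9. Alternatives were another pseudocount, no filter, other gene sets, median-of-ratios scaling, a replicate block, a trended prior, the compared groups alone, averaged near-identical replicates and each library left out. Counts of further lists without the libraries that stood apart, and light chain shares with Slc7a8, were added after seeing the data.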

Additional observations from a re-analysis of the deposited data

How the results depend on the processing

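Of 1450 refitted log2 changes of the 10 carriers, 1397 kept their direction and their side of the threshold, 13 lost a call, 14 gained one and 26 changed direction. The count of called carriers changed in these cases, and the cause was not tested. With median-of-ratios scaling it was 3 in ESC-derived 3D over 2D EpiSCs, 3 in embryo-derived over EpiLCs and 5 in E4.5 over E3.5. In embryo-derived 3D over 2D EpiSCs it was 3 with near-identical replicates averaged, where fewer libraries enter. In ESC-derived 3D EpiSCs over EpiLCs it was 2 with median-of-ratios scaling or with the compared groups alone. In 2D EpiSCs over EpiLCs it was 0 with median-of-ratios scaling. On autosomes alone it was 1 in E7.5 over E6.5 and 5 in E4.5 over E3.5, where X-linked Slc7a3 has no value. With 1 library left out, the count ran from 1 to 2 in ESC-derived 3D over 2D EpiSCs, 4 to 5 in embryo-derived over 2D, 1 to 2 in ESC-derived over EpiLCs (2 without ESC-derived replicate 3, EpiLC replicate 1 or EpiLC replicate 2), 3 to 7 in embryo-derived over EpiLCs (7 without embryo-derived replicate 1), 0 to 1 in 2D over EpiLCs, 0 to 2 between the 3D cultures and 5 to 6 in E4.5 over E3.5. Of the changed directions 1, that of Slc38a1 in E7.5 over E6.5, had an adjusted p below 0.05 by limma in the main fit. The refitted values with a changed direction were small. With median-of-ratios scaling these were Slc7a3 0.19 and Slc7a6 0.16 (ESC-derived over 2D), Slc7a7 0.060 (embryo-derived over 2D), Slc7a1 -0.14 (2D over EpiLCs), Slc7a6 0.03 (between 3D cultures), Slc7a3 -0.072 and Slc1a5 -0.069 (E5.5), Slc7a5 0.012 (E6.5) and Slc38a1 -0.036 (E7.5). With near-identical replicates averaged they were Slc7a6 -0.036 (embryo-derived over 2D), and Slc7a7 0.00078 and Slc3a2 0.055 (between 3D cultures). With 1 library left out, Slc7a3 ran from -0.076 to 0.023 and Slc7a6 from -0.10 to 0.010 in ESC-derived over 2D, Slc7a3 from -0.29 to 0.15, Slc7a6 from -0.0073 to 0.11 and Slc7a7 from -0.086 to 0.058 in embryo-derived over 2D, Slc7a1 from -0.10 to 0.18 in 2D over EpiLCs, Slc7a3 from -0.18 to 0.26 between 3D cultures, Slc7a5 from -0.13 to 0.011 in E6.5 over E5.5, and Slc7a1 from -0.076 to 0.091 in E7.5 over E6.5. Rescaling moved the median of all genes from 0.11 to 0.0034 (embryo-derived over EpiLCs), 0.19 to -0.0023 (2D over EpiLCs) and 0.16 to 0.032 (E5.5).

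Same-numbered libraries did not deviate together (mean r of -0.029 over 18 pairs in vitro and -0.016 over 30 in vivo), and 2 of 12 and 2 of 15 libraries correlated best with their own number, so the numbers were not taken as pairs. With the replicate block, the counts of called carriers were 2, 5, 1, 4, 1 and 0 in vitro and 6, 3, 0 and 2 in vivo, as without it. TPM keeps no depth, so the counting error of low levels, such as those of Slc1a4 and Slc7a1 in the embryo, is unknown.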
